A study of Gallus gallus with 4 samples.

Results

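The FAM19A genes, also called TAFA genes, encode a family of small secreted proteins made mostly by neural cells. FAM19A1, FAM19A2, FAM19A3 and FAM19A4 were taken by their symbols from the authors' deposited comparison of chick neural tube cells with and without added Hoxb8. They make up 4 of the 17108 genes listed there. All 4 had an adjusted p-value, as did 12574 genes in all. The symbols alone picked the lines, but the family was chosen by its log2 fold changes and adjusted p-values in this comparison, which were known. Those values are therefore a description and support no claim about the family. One more gene of the family, FAM19A5, has 0 lines under that symbol, so it has no values here and only its neighbours in the genome were looked up.

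FAM19A proteins are short, rich in cysteines and distantly related to chemokines, the small proteins that guide migrating cells. They are best known from the mammalian brain. In mice FAM19A1 to FAM19A4 bind neurexins, presynaptic adhesion proteins, inside the cell that makes both, and members have also been paired with receptors that couple to G proteins. Little is known of their roles in the early chick neural tube.

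Cells came from chick embryos that received plasmids by in ovo electroporation at stage HH11 of the Hamburger-Hamilton series, when the trunk neural tube is forming. Control embryos (2 libraries) received the plasmid pCIG at 2 µg/µl. Hoxb8 embryos (2 libraries) received Hoxb8-pCIG at 1 µg/µl together with pCIG at 1 µg/µl. Both groups thus carried pCIG, which makes green fluorescent protein (GFP), and the labels give no promoter, embryo pool or batch. After 18 hours the GFP-expressing stretch was dissected and dissociated, living GFP-positive cells were sorted, and their amplified cDNA was sequenced. Nothing in the labels says that libraries of a group came from separate embryos, so the p-values rest on spread between libraries only, which may be technical. For the FAM19A genes the standard errors behind them were near the median of genes of like level, whatever the gap between a gene's own libraries.

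The table holds 1 mean per gene over the 4 libraries, each read count having been divided by a size factor that evens out depth. Those means were exact enough to be turned back into whole reads per library. Of 4653 genes with a mean between 3 and 500, 4653 had exactly 1 set of 4 whole numbers that gave the deposited mean within rounding. Across the 4654 genes solved in all, the direction of the resulting ratio equalled the deposited direction in 100 percent. Libraries were placed on the Hoxb8 or the control side by the sign of the authors' fold change in genes whose single read lay in one library. They could not be tied to replicate numbers and are called a and b here. Their size factors were 1.053 and 1.051 on the Hoxb8 side and 0.9579 and 0.9539 on the control side. Summed over all genes, a library held 79237283 normalised counts on average.

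FAM19A2, FAM19A3 and FAM19A4 were higher in Hoxb8 than in control, and FAM19A1 was at a like level in both groups with a wide spread. FAM19A2 and FAM19A3 went from 10 or 12 reads in each control library to between 90 and 192 in each Hoxb8 library. FAM19A4 had at least 279 reads in every library and increased less. Read counts are not corrected for transcript length, so levels are compared between groups and not between genes. In sorted bulk cells, more cells that express a gene and more RNA per cell cannot be told apart.

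**Figure D1:**
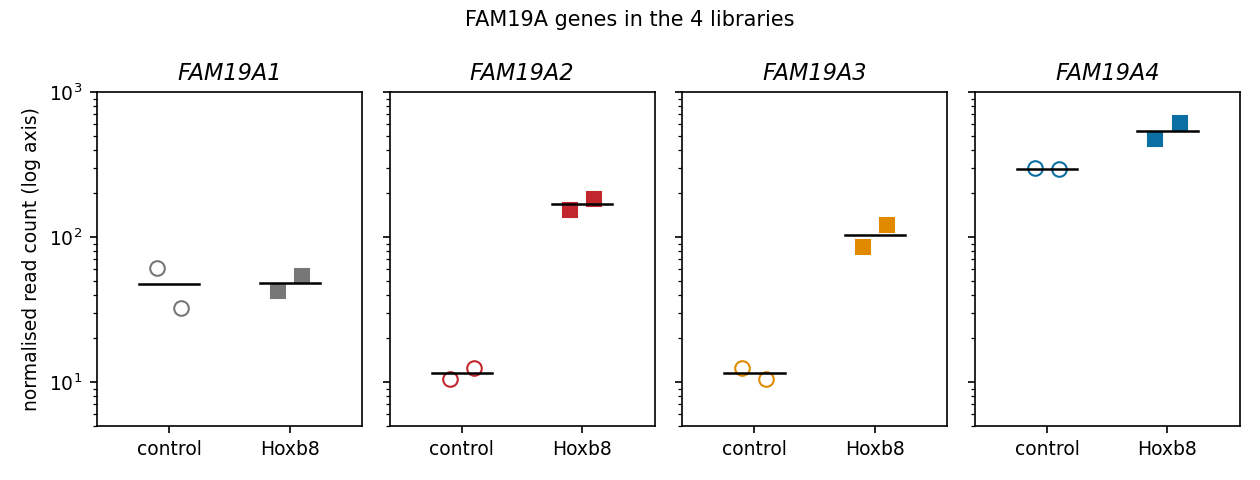
Normalised read count (log axis) of the 4 FAM19A genes in each control library (open circles) and each Hoxb8 library (filled squares), with the group mean as a line. FAM19A2 and FAM19A3 stand between 10.4 and 12.6 in control and between 85.4 and 182.6 in Hoxb8, FAM19A4 rises from a mean of 296.6 to 541.7, and the FAM19A1 groups overlap.

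FAM19A2 (ENSGALG00000019361) is known in mice as a neuron-derived factor that supports the survival of neurons. It had 10 and 12 reads in the control libraries and 162 and 192 reads in the Hoxb8 libraries. After division by the size factors these became normalised read counts of 10.4 and 12.6 in control and of 153.8 and 182.6 in Hoxb8. Both Hoxb8 libraries thus lay far above both control libraries, the lowest Hoxb8 value being 12.2 times the highest control value. The group means differed 14.6-fold, a log2 ratio of 3.87. The authors' deposited table gives FAM19A2 a moderated log2 fold change of 1.84 ± 0.27 (standard error), a 3.57-fold rise, with an adjusted p of 5.03e-10. The gap between both libraries of a group was 0.25 (Hoxb8) and 0.27 (control) on the log2 scale. Leaving out any single library kept its log2 ratio between 3.74 and 4.01.

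FAM19A3 (ENSGALG00000026585) has been described in mice in the injured brain, where it acts on microglia. Its control libraries held 12 and 10 reads, and its Hoxb8 libraries held 90 and 128. The normalised read counts of FAM19A3 were 12.5 and 10.5 in control and 85.4 and 121.8 in Hoxb8. The groups again did not overlap, with the lowest Hoxb8 value at 6.82 times the highest control value. Group means differed 9.0-fold, a log2 ratio of 3.17, which ran from 2.89 to 3.40 when single libraries were left out. FAM19A3 has in the authors' deposited table a moderated log2 value of 1.23 ± 0.26, a 2.34-fold rise, with an adjusted p of 8.72e-05. FAM19A2 and FAM19A3 each had 22 reads over both control libraries together, for which the 95 percent exact Poisson interval is 13.8 to 33.3 reads. This interval covers counting error only, and reads from amplified cDNA are not independent molecules.

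FAM19A4 (ENSGALG00000028292) is known in mice from sensory neurons that respond to light touch, where the secreted protein dampens pain, and its human form binds the formyl peptide receptor FPR1. The control libraries had 288 and 279 reads and the Hoxb8 libraries had 498 and 642. The normalised read counts of FAM19A4 were 300.7 and 292.5 in control, close together, and 472.8 and 610.7 in Hoxb8. The lowest Hoxb8 value was 1.57 times the highest control value, so the groups did not overlap. Group means differed 1.83-fold, a log2 ratio of 0.87 that ran from 0.67 to 1.04 when single libraries were left out. The authors' deposited table puts FAM19A4 at 0.71 ± 0.21 on the log2 scale, a 1.63-fold rise, with an adjusted p of 0.00783. That call ended when fold changes were centred on the genes nearest in mean, which themselves had a median log2 fold change of 0.17 (FAM19A4 then at 0.53, adjusted p = 0.0724).

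FAM19A1 (ENSGALG00000027934), which binds the receptor GPR1 in mammals, did not pass the threshold. It had 59 and 31 reads in the control libraries and 45 and 57 in the Hoxb8 libraries. Its normalised read counts were 61.6 and 32.5 in control and 42.7 and 54.2 in Hoxb8, so that both Hoxb8 values lay between the control values. The group means, 48.5 in Hoxb8 and 47.0 in control, differed by a log2 ratio of 0.043. The authors' deposited table puts FAM19A1 at 0.017 ± 0.26 on the log2 scale, with an adjusted p of 0.979. Leaving out single libraries moved the log2 ratio from -0.35 to 0.58, so its direction rested on which library was kept. The spread does not show an absence of change in FAM19A1. From the standard error, the deposited log2 fold change of FAM19A1 has a 95 percent interval of -0.49 to 0.53. That interval belongs to a value drawn toward 0 by the authors' model and does not bound the change in the reads. For FAM19A2 the interval made the same way, 1.31 to 2.36, leaves out its log2 ratio of 3.87 from the reads.

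By the authors' deposited table, 3 of the 4 FAM19A genes had an adjusted p below 0.05, of which 3 were higher in Hoxb8 and 0 lower. Over all 12574 tested genes 15.2 percent passed, 8.72 percent higher and 6.49 percent lower in Hoxb8. Among the 2696 tested genes with a mean of 40 to 500, which covers the level of the 4 members, 12.4 percent passed as higher and 1.71 percent as lower. Both Hoxb8 libraries lay above both control libraries in 3 of the 4 members, against 40.7 percent of the genes at that level. The reverse order occurred in 17.1 percent. The deposited fold change was at least 2-fold in 2 members, FAM19A2 and FAM19A3, against 4.97 percent of genes at that level. Since the family was chosen with this comparison known, nothing is read from these shares. The overall split moved with the scaling: with genes over a mean of 10000 centred at 0, 1849 genes were higher and 361 lower, against 1097 and 816 as deposited. With scores divided by their central spread of 1.69, FAM19A2 still passed (adjusted p = 0.00383), while FAM19A3 (adjusted p = 0.151) and FAM19A4 (adjusted p = 0.499) did not.

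**Figure D2:**
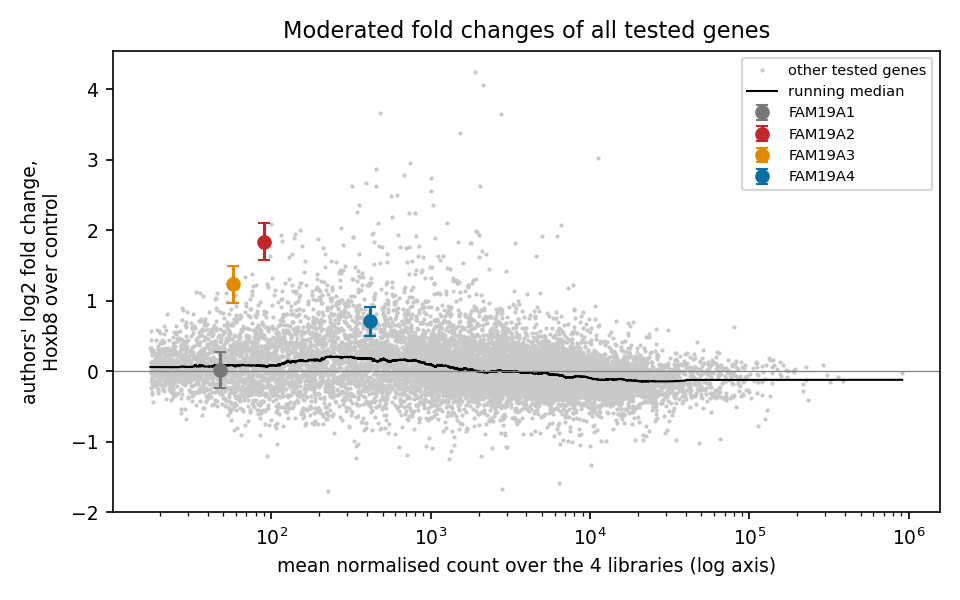
Authors' moderated log2 fold change (Hoxb8 over control) against the mean normalised count (log axis) for every tested gene (grey), with the running median (black line) and the 4 FAM19A genes with their standard errors. FAM19A2 at 1.84 and FAM19A3 at 1.23 lie well above the line, in the upper part of the cloud. Of genes with a mean of 40 to 500, 4.97 percent had a deposited rise of at least 2-fold. FAM19A4 at 0.71 is at the upper side of the cloud, and FAM19A1 at 0.017 is near the line.

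Ordered from the highest deposited log2 fold change down, the 12574 tested genes of the authors' deposited table had FAM19A2 at place 48, FAM19A3 at place 146, FAM19A4 at place 587 and FAM19A1 at place 5881. Among the 1157 tested genes with a symbol these were places 5, 16, 74 and 609. The standard errors were usual for their level, at 0.985 to 1.0 times the median of genes nearest in mean.

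The deposited fold changes are moderated, that is, drawn toward 0 by the authors' model, and the reads show by how much. What sets the size of this pull in a gene was not tested. The log2 ratio of FAM19A2 was 3.87 from the reads and 1.84 as deposited, and that of FAM19A3 was 3.17 and 1.23. For FAM19A4, with 1707 reads in all, the values were 0.87 and 0.71. Of the 2696 genes with a mean of 40 to 500, FAM19A2 and FAM19A3 included, 27 had a log2 ratio of at least 3 from the reads. Their median was 3.42 from the reads, and the authors' deposited table gives them a median of 1.85 and a range of 0.87 to 3.67. These genes were picked by a high ratio from the reads, which by itself favours a lower deposited median. Nothing is therefore read from that difference.

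**Figure D3:**
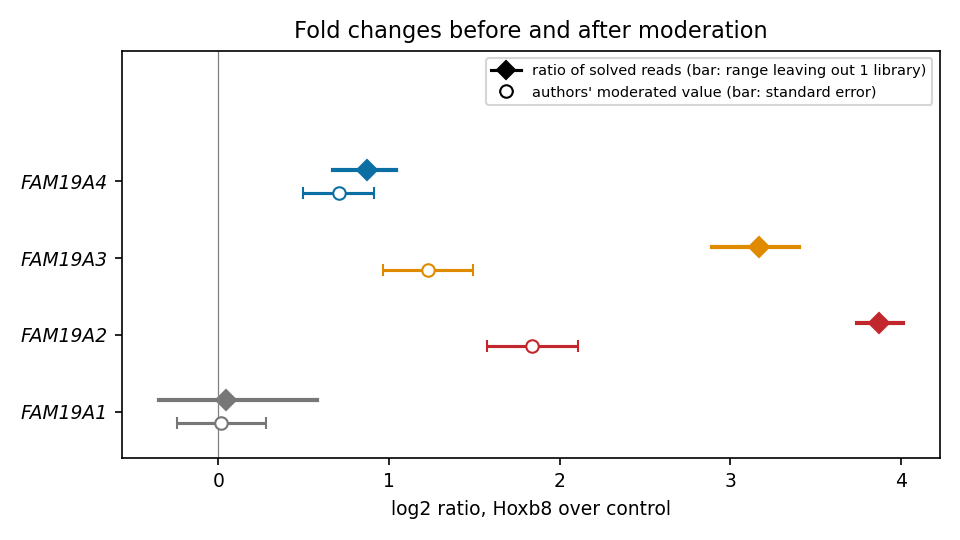
Log2 ratio of group means from the reads per library (diamonds, with a bar for the range when 1 library is left out) and the authors' moderated log2 fold change (open circles, with the standard error) for each FAM19A gene. The diamonds of FAM19A2 (3.87) and FAM19A3 (3.17) lie well to the right of their circles (1.84 and 1.23), while those of FAM19A4 (0.87 and 0.71) and FAM19A1 lie close together.

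Set beside 500 other genes of like mean each, the members differed in how well libraries of a group repeated. For FAM19A2, 31.4 percent of those genes had a smaller gap between both Hoxb8 libraries and 35.8 percent between both control libraries. For FAM19A3 the shares were 56.6 and 29.6 percent. The genes were matched on the mean over all 4 libraries, 71.3 to 113 for FAM19A2 and 44.3 to 74.7 for FAM19A3. By group, FAM19A2 had a mean of 11.5 in control and 168.2 in Hoxb8, and FAM19A3 of 11.5 and 103.6. For FAM19A2 and FAM19A3 the genes are thus not matched in level within each group, and nothing is read from their shares. FAM19A4 had closely repeated control libraries, with a log2 gap of 0.040 against a median of 0.25, and 9.0 percent of like genes had a smaller one. Its Hoxb8 libraries were further apart than most, with a log2 gap of 0.37 against a median of 0.26, and 65.4 percent of like genes had a smaller gap. FAM19A1 had control libraries further apart than most, with a log2 gap of 0.92 against a median of 0.51, and Hoxb8 libraries with a gap of 0.34 against a median of 0.47. Of the 500 genes set beside FAM19A2, 1 had a log2 ratio as high, and 5 of the 500 set beside FAM19A3. For FAM19A4 it was 76 of 500, and for FAM19A1 293 of 500. Since the family was chosen by its fold changes in this comparison, these counts restate that choice and nothing is read from them.

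**Figure D4:**
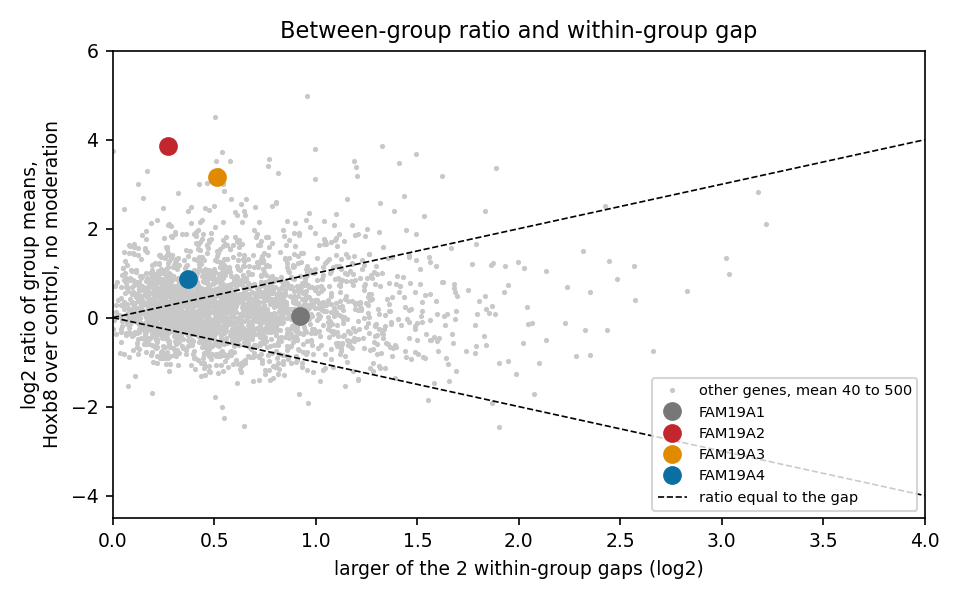
Log2 ratio of group means from the reads (Hoxb8 over control) against the larger of the within-group gaps between libraries (log2) for 2696 tested genes with a mean of 40 to 500, of which 2 lie outside the axes; on the dashed lines the ratio equals the gap. FAM19A2, FAM19A3 and FAM19A4 lie above the upper line with gaps of 0.27, 0.51 and 0.37, and FAM19A1, with a gap of 0.92, lies between the lines. The share of all these genes above that line was not counted. In 40.7 percent of them both Hoxb8 libraries lay above both control libraries. The family was chosen by its fold changes, so nothing is read from these places.

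The genes most like each member were those with a symbol nearest in mean and deposited fold change together. Nearest to FAM19A4 was SCG2, which encodes the granule protein secretogranin II, with 249 and 263 reads in control and 570 and 487 in Hoxb8. KCNK12, a potassium channel gene that did not pass (adjusted p = 0.0635, per the authors' deposited table), and ITPRIP followed. Nearest to FAM19A2 were TMEM114, with 20 and 10 reads in control and 135 and 151 in Hoxb8, ADAMTSL3, and the ghrelin receptor gene GHSR. Their deposited log2 fold changes of 1.39, 1.22 and 0.98 all lay below the 1.84 of FAM19A2, so the likeness is loose. The control libraries of GHSR were far apart, at 4 and 36 reads. For FAM19A3 they were the homeobox gene RAX, the synuclein gene SNCG, with 8 and 11 reads in control and 79 and 91 in Hoxb8, and A4GALT. XAF1, PPP1R3C and LRRC3B were nearest to FAM19A1. This likeness rests on a mean and a fold change over 4 libraries.

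Of the known partners of FAM19A proteins, few could be followed by symbol. In the list of 19 receptor and neurexin complex genes 2 were in the table, and LRP1 was listed at 0. So were 2247 of the 17108 genes listed, and whether such genes lack RNA or were missed in the counting was not tested. GPR1, the mammalian receptor of FAM19A1 and of chemerin, was tested and did not pass (-0.35 ± 0.25 on the log2 scale and adjusted p = 0.387, per the authors' deposited table). It had 176 and 196 reads in control and 141 and 148 in Hoxb8, so its Hoxb8 libraries lay below its control libraries. The same order occurred in 17.1 percent of tested genes with a mean of 40 to 500, and the reverse in 40.7 percent, so nothing is read from it. Other genes of this list were not analysed here.

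Among 5 tested genes on the list of other neurexin ligands, 1 passed and was higher in Hoxb8. Over all tested genes 15.2 percent passed in either direction, so this count is no result about the list. The median log2 fold change of these 5 was 0.23, against -0.0053 over all tested genes. Tested genes with a mean of 40 to 500, which covers the level of these 5, had a median of 0.128. The list was chosen with earlier results of these data known, so nothing is read from its median. NXPH2, a secreted neurexophilin that binds neurexins, rose by a log2 fold change of 1.43 ± 0.24 (adjusted p = 9.12e-08, per the authors' deposited table). Its reads were 130 and 80 in control and 463 and 440 in Hoxb8, a 3.91-fold difference of the normalised means. Its paralogue NXPH1 had 93 and 95 reads in control and 84 and 78 in Hoxb8 (-0.20 ± 0.27 on the log2 scale, adjusted p = 0.699, per the authors' deposited table). The differences between NXPH1 and NXPH2, and between FAM19A1 and FAM19A2, were not tested.

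The postsynaptic neurexin ligand LRRTM3 had 322 and 229 reads in control and 164 and 177 in Hoxb8. It did not pass as deposited (-0.60 ± 0.24 on the log2 scale, adjusted p = 0.0704, per the authors' deposited table). It did when centred on genes of like mean (-0.80, adjusted p = 0.0102). Its relative LRRTM4 did not pass either (0.23 ± 0.26, adjusted p = 0.636, per the authors' deposited table). C1QL1, a secreted synaptic protein with a C1q domain, did not pass (0.50 ± 0.25, adjusted p = 0.173, per the authors' deposited table). It is on the list of neurexin ligands, but whether C1QL1 itself binds neurexins was not checked here. One Hoxb8 library of C1QL1 held 583 reads and the other 247, against 248 and 201 in control.

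The wider list of secreted neural factors and their processing enzymes had 14 tested genes, of which 6 rose, 2 fell and 6 did not pass. Over all tested genes 8.72 percent passed as higher and 6.49 percent as lower. The list's median log2 fold change was 0.45. The list was chosen with earlier results of these data known, so nothing is read from its counts or its median. Besides NXPH2, the authors' deposited table has among the risers PCSK1, a convertase that cuts prohormones, at a log2 fold change of 1.13 ± 0.21. OLFM3, an olfactomedin, rose by 0.82 ± 0.17, SCG2 by 0.74 ± 0.21 and CPE, a carboxypeptidase that trims cut prohormones, by 0.68 ± 0.15, per the authors' deposited table. The chemokine CXCL12 rose by 0.52 ± 0.17 (adjusted p = 0.0172, per the authors' deposited table). With scores divided by their central spread, 1 gene of this list was higher (NXPH2) and 1 lower (PTN). When centred on genes of like mean, SCG2 (adjusted p = 0.0530) and CXCL12 (adjusted p = 0.0613) no longer passed. Per the authors' deposited table the growth factor gene PTN fell by 0.98 ± 0.12 and LGI1, a secreted leucine-rich protein of synapses, by 0.55 ± 0.15, both as log2 values.

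**Figure D5:**
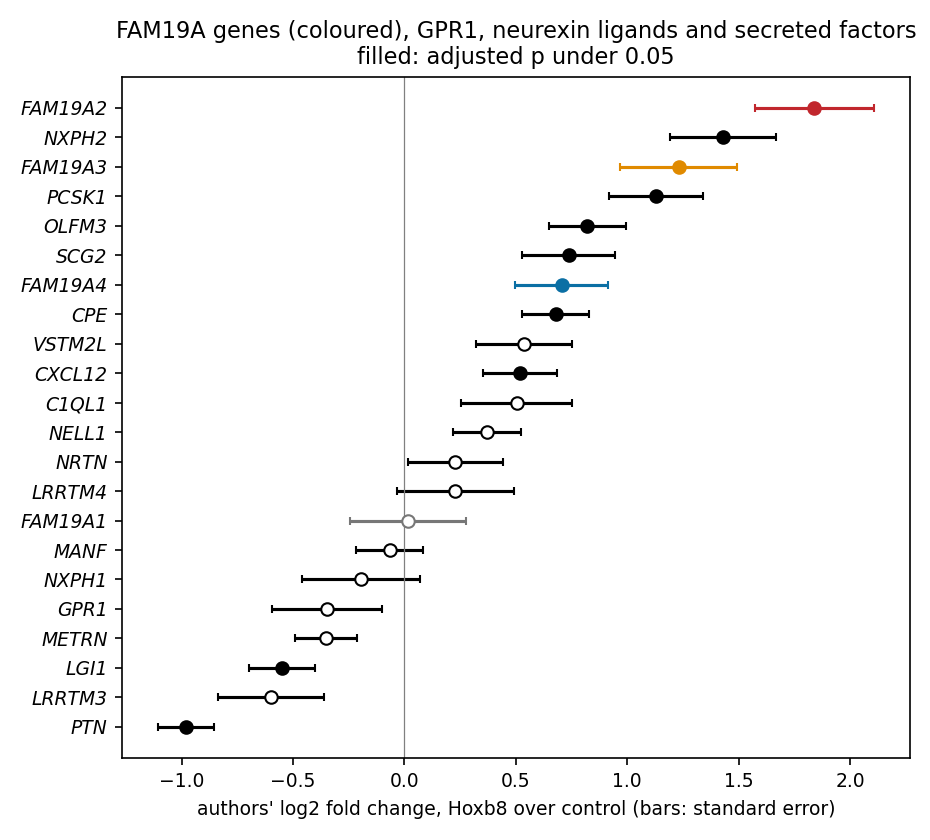
Authors' log2 fold change (Hoxb8 over control, bars for the standard error) of the 4 FAM19A genes (coloured), GPR1, other neurexin ligands and secreted neural factors, with filled symbols for an adjusted p under 0.05. FAM19A2 (1.84) heads the order, followed by NXPH2 (1.43), FAM19A3 (1.23) and PCSK1 (1.13), and PTN (-0.98) closes it.

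Markers of cell types had few lines with a symbol, too few to set their counts against the 8.72 percent of all tested genes that passed as higher and the 6.49 percent that passed as lower. Of 44 neuron markers 3 were listed, NEUROD4 among them at 0, and both tested ones were higher in Hoxb8. CALB2, which encodes calretinin, had 71 and 50 reads in control and 366 and 390 in Hoxb8, and RBFOX3, a splicing factor of neurons, rose by 0.47 ± 0.17 on the log2 scale (adjusted p = 0.0440, per the authors' deposited table). RBFOX3 thus passed narrowly, and the genes nearest to it in mean had a median log2 fold change of 0.079. Whether RBFOX3 passes when centred on them was not examined. Of 29 neural progenitor markers 3 were listed, with PAX3 (-0.82 ± 0.12) and LMX1A (-1.05 ± 0.15) lower in Hoxb8 and ID3 (-0.32 ± 0.12) not past the threshold, per the authors' deposited table. All 3 are also regulators of the dorsal neural tube, so they do not stand for progenitors in general. PAX3, at a mean of 14020 normalised counts, is also a neural crest marker and the 1 listed and tested gene of the 11 on that list. The endothelial marker PECAM1, the somite marker UNCX and the surface ectoderm marker GRHL2 did not pass, and KRT8 was listed at 0. A value of 0, in KRT8 or NEUROD4, was not taken to show that the gene's RNA is absent. LMO2, a blood and interneuron gene, rose by 1.48 ± 0.17 on the log2 scale, per the authors' deposited table. Summed levels of these lists were not derived, since the reads of genes with means over 1000 were not solved. The part of any shift in cell types in the FAM19A values was not tested.

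The place of the members in the genome was not used to choose them. In the gene order of the later chicken assembly GRCg7b, FAM19A1 and FAM19A4 are direct neighbours, with 0 protein-coding genes between them. Each member lies within 5 protein-coding genes of a gene of the LRIG family of membrane proteins: LRIG1 is 4 genes from FAM19A1 and 5 from FAM19A4, LRIG3 is 2 genes from FAM19A2 and LRIG2 is 2 genes from FAM19A3. As direct neighbours, FAM19A1 and FAM19A4 share LRIG1. The same look-up for FAM19A5 found no LRIG gene within 5 protein-coding genes, so this is not a trait of the whole family. The deposited table was made on another build, so positions are not given. The neighbours FAM19A1 and FAM19A4 had deposited log2 fold changes of 0.017 and 0.71, a difference that was not tested.

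Other neighbours of the members that could be looked up by symbol did not pass. The authors' deposited table puts LRIG2, near FAM19A3, at -0.29 ± 0.12 on the log2 scale (adjusted p = 0.0734). PPM1H, a phosphatase gene 4 genes from FAM19A2, was at 0.39 ± 0.20 (adjusted p = 0.171, per the authors' deposited table). KBTBD8 and TMF1, on either side of the FAM19A1 and FAM19A4 pair, were at 0.027 ± 0.16 and 0.083 ± 0.12, per the authors' deposited table. LMOD3, 5 genes from FAM19A4, had no adjusted p. The other genes within 5 places were not found in the table under their reference symbols and were not used here.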

How the data were processed

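Polyadenylated RNA of 2 control and 2 Hoxb8 libraries was sequenced. Per the submitters' processing notes the tools were featureCounts, Subread, DESeq2 and DESeq with the build galGal4, without versions. Strand and aligner settings are not stated in those notes. The authors deposited 1 table of their comparison, Hox against WT, read here as Hoxb8 against control, the 2 groups that the labels name. Per the file headers it gives a mean (signal: counts divided by size factors), log2 fold changes with standard errors on the log2 scale, a Wald score and p-values. The authors' score was recomputed from the fold change and its standard error within 9.24e-14, and Benjamini-Hochberg adjustment of 12574 deposited p-values gave the authors' adjusted ones within 1.89e-15. The lowest mean with an adjusted p was 17.49.

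Whole reads per library were solved from the deposited mean, using the 4 values that single reads take as steps (Python 3.11.15, numpy 2.4.6). The largest residual of a member was 5.68e-14. The solver was tested on simulated data. Genes with a mean under 500, and listed genes under 1000, were solved. No count model was fitted: calls are the authors' at an adjusted p under 0.05. Alternatives changed the filter on the mean, the threshold, the centring and the scale of the scores.

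The members and lists were chosen with earlier results of these data known. Named genes are the members, every listed receptor and neurexin ligand gene, up to 8 secreted factors that passed, the 3 nearest genes to each member in the plane of log2 mean and log2 fold change, and up to 3 markers a list by mean. Gene order comes from RefSeq (GRCg7b), within 5 protein-coding genes, a look-up chosen after the values were seen. No sequences of the members were used here.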

Additional observations from a re-analysis of the deposited data

How the results depend on the processing

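No paired analysis was possible because nothing ties the libraries behind the deposited means to replicate numbers. FAM19A2 passed under every alternative that tests it. The alternatives reuse the deposited values by which the family was chosen, so passing them adds no support. A mean of at least 400 left only FAM19A4 to test, so 1 member was higher there. With scores divided by their central spread (1.69), 1 of 4 members passed, FAM19A2 (adjusted p = 0.00383). FAM19A3 (1.23, adjusted p = 0.151) and FAM19A4 (0.706, adjusted p = 0.499) then did not, against ranges of 8.5e-06 to 0.151 and 0.000942 to 0.499 over the alternatives. Under that setting 239 genes of the table were higher and 75 lower, and 1 secreted factor was higher and 1 lower. Centred on the genes nearest in mean, FAM19A4 (0.533, adjusted p = 0.0724) did not pass, FAM19A1 changed direction (-0.0697) and 1 neurexin ligand was lower, as was 1 at an adjusted p under 0.1; the cause was not tested. Centred on genes with a mean over 10000, whose median was -0.125 before, so that all fold changes moved up, 1849 genes were higher and 361 lower (1097 and 816 as deposited). At an adjusted p under 0.01, 431 were lower. At a mean of at least 400, 3 secreted factors were higher, with 9 tested. Without moderation the log2 ratios of FAM19A2 and FAM19A3 were 3.869 and 3.171. Leaving out single libraries, the log2 ratio ran from -0.3458 to 0.5767 for FAM19A1 (-0.1393 without Hoxb8 library b, -0.3458 without control library b), 3.74 to 4.01 for FAM19A2, 2.893 to 3.404 for FAM19A3 and 0.6727 to 1.042 for FAM19A4. No test without single libraries was run on the solved reads; these ranges are values only. Low counts limit FAM19A2 and FAM19A3 in control, at 22 reads each over both control libraries. A library held 79237283 normalised counts on average, so both genes were near the floor in control. Their ratios from the reads thus have a small and uncertain denominator.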
